A study of Mus musculus with 9 samples.

Results

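The NRF2 antioxidant program was read out through 10 genes in whole-brain RNA-seq of 3 normal control mice (CON), 3 mice with diabetic neuropathic pain (DNP) and 3 DNP mice given baclofen (BAC). The genes were chosen by name, as the rows of the count and FPKM tables with the symbols Nqo1, Hmox1, Gclc, Gclm, Txnrd1, Srxn1, Slc7a11, Gpx1, Sod1 and Cat, which are 10 of the 53465 genes listed. All 10 were among the 18501 genes with enough counts to be tested. All mice were male C57BL/6 animals, 7 weeks old at the start, with a library of their own. Both diabetic groups ate food with 60% fat over 4 weeks, after which streptozotocin, a compound that destroys the beta cells of the pancreas, was injected daily (50 mg/kg, 7 days), whereas CON mice stayed on standard chow. Pain thresholds were assessed 4 weeks after streptozotocin, and only animals with both high blood glucose and lowered thresholds were enrolled, so the diabetic groups hold selected responders. Baclofen, which activates GABA-B receptors, was given to the BAC group over 7 days (8 mg/kg per day), and the other two groups were given saline. High-fat diet, streptozotocin and selection are shared by DNP and BAC and absent from CON, and their separate parts in a difference from CON cannot be told apart.

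NRF2, encoded by Nfe2l2, is a transcription factor that the adaptor KEAP1 marks for degradation in unstressed cells. Oxidants and electrophiles modify KEAP1, and NRF2 then enters the nucleus and, paired with a small MAF protein, binds antioxidant response elements near genes for glutathione synthesis, thioredoxin reduction, quinone reduction and heme breakdown. In the brain this program is known mainly from astrocytes, which supply neurons with precursors of glutathione. Superoxide dismutase 1, glutathione peroxidase 1 and catalase are the basal enzymes that turn superoxide and hydrogen peroxide into water and oxygen, and their genes depend less on NRF2.

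The core of the antioxidant response element, TGACNNNGC, was searched on both strands of RefSeq promoter windows (build GRCm38.p6) that reach from 250 bases before to 50 bases after a start site. A window was listed for 8 of the members, 10 windows in all, and 4 of the 10 held the core, against 12.4% of 32851 windows over all genes. Gclc and Hmox1 had no window in the table. The sites are shown because this element is the DNA address of the pathway, with the core in capitals, 10 bases on either side, and the strand opposite to the gene printed 5′ to 3′.
Srxn1: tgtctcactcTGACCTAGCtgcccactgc
Gclm: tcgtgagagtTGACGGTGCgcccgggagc
Txnrd1: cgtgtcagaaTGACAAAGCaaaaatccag
Sod1: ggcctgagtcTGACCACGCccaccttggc
The Srxn1 stretch lies at chr2:152105542-152105570, with the core 29 to 37 bases after the start site. The Gclm stretch lies at chr3:122245413-122245441, with the core between positions -134 and -126. The Txnrd1 stretch lies at chr10:82859104-82859132, before an internal start site of the gene, with the core between positions -92 and -84. The Sod1 stretch lies at chr16:90220696-90220724, with the core between positions -56 and -48. A match describes the letters in the window and does not show that NRF2 binds there.

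Between 13107382 and 16008129 reads per library were counted on genes, and levels are given as CPM (counts scaled to library size) with TMM factors unless FPKM is named. Log2 fold changes are from edgeR's quasi-likelihood test over the 9 libraries, given with their standard errors, and adjusted p-values are Benjamini-Hochberg values over all 18501 genes. Libraries within a group differed in the brain regions they held. The summed level of 8 forebrain markers was 413 to 621 CPM in 5 libraries (CON replicates 1 and 3, DNP replicates 2 and 3, and BAC replicate 2) and 42 to 77.6 CPM in the remaining 4 (CON replicate 2, DNP replicate 1, and BAC replicates 1 and 3). Those 4 were therefore poor in forebrain although the tissue was labelled whole brain. The summed level of 9 markers of brainstem and spinal cord was 388 to 428 CPM in DNP replicate 1 and BAC replicates 1 and 3 and 0.263 to 29.4 CPM in the other libraries. That of 9 cerebellar markers was 6528 CPM in CON replicate 2, 625 in DNP replicate 1, and 3258 and 1101 in BAC replicates 1 and 3. It was 63 to 985 CPM in the 5 libraries rich in forebrain. The CON library poor in forebrain was thus rich in cerebellar markers, and no CON library was rich in brainstem markers. In bulk tissue, fewer cells of a type and less RNA per cell cannot be told apart.

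No gene in the table passed an adjusted p of 0.05 in any of the 3 comparisons (0% of genes tested), and so no member did. The number of genes at an unadjusted p under 0.05 was 2067 for DNP over CON, 438 for BAC over DNP and 1436 for BAC over CON. DESeq2 called 346 genes (2.03%), 7 genes (0.0379%) and 101 genes (0.569%) in the same order, none of them a member. At an unadjusted p under 0.05, edgeR counted 2 of 10 members in DNP versus CON, both higher, against 11.2% of all genes (5.71% higher and 5.46% lower). In BAC versus DNP it counted 0 of 10 against 2.37% (1.37% higher and 1% lower), and in BAC versus CON 1 of 10, higher, against 7.76% (4.46% higher and 3.3% lower). Groups did not overlap for 2 of 10 members in DNP versus CON, where this held for 18.2% of all genes (9.59% with DNP above and 8.63% below). In BAC versus DNP it held for 1 member and 6.79% of genes (3.38% above and 3.41% below), and in BAC versus CON for 1 member and 13.4% of genes (7.21% above and 6.23% below). With 10 members, none of these counts stands far from its background.

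The median log2 fold change of the members was 0.21 for DNP over CON, 0.10 for BAC over DNP and 0.27 for BAC over CON, against 0.01, -0.01 and -0.02 over all genes tested. Members with a fold change above 0 numbered 7, 7 and 9 of 10, against 51.4%, 48.1% and 48.2% of all genes. These comparisons share their groups pairwise, so these counts are not independent of each other.

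Per transcript length, Sod1 was by far the most abundant member. Its mean over the 9 libraries was 215 FPKM (range 147 to 274), and no other member reached 31 FPKM in any library. Srxn1 followed with 25.0 FPKM (19.9 to 30.9), Gclc with 18.2 (17.0 to 20.4), Cat with 16.1 (12.2 to 23.2) and Gpx1 with 15.0 (10.1 to 18.9). The ratio of counts to FPKM implies 3412 bases for Gpx1, more than the 1441 bases the gene spans. Its FPKM and its place in this order are therefore uncertain. Gclm stood at 8.75 FPKM (4.99 to 13.1), Txnrd1 at 5.91 (4.78 to 7.04), Nqo1 at 3.71 (1.69 to 5.67), Slc7a11 at 2.5 (1.41 to 3.40) and Hmox1 at 1.87 (1.01 to 3.09). Below Sod1, the ranges of neighbours in this order overlapped, but Srxn1 exceeded Gclc and Txnrd1 exceeded Nqo1 in 9 of 9 libraries. The other neighbouring pairs kept the order of their means in 4 to 8 of 9 libraries, and their order is not resolved. The spread was widest where the level was low: the highest library exceeded the lowest 3.08-fold for Hmox1 and 3.07-fold for Nqo1, both counted with at most 136 reads in a library, but 1.23-fold for Gclc.

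**Figure D1:**
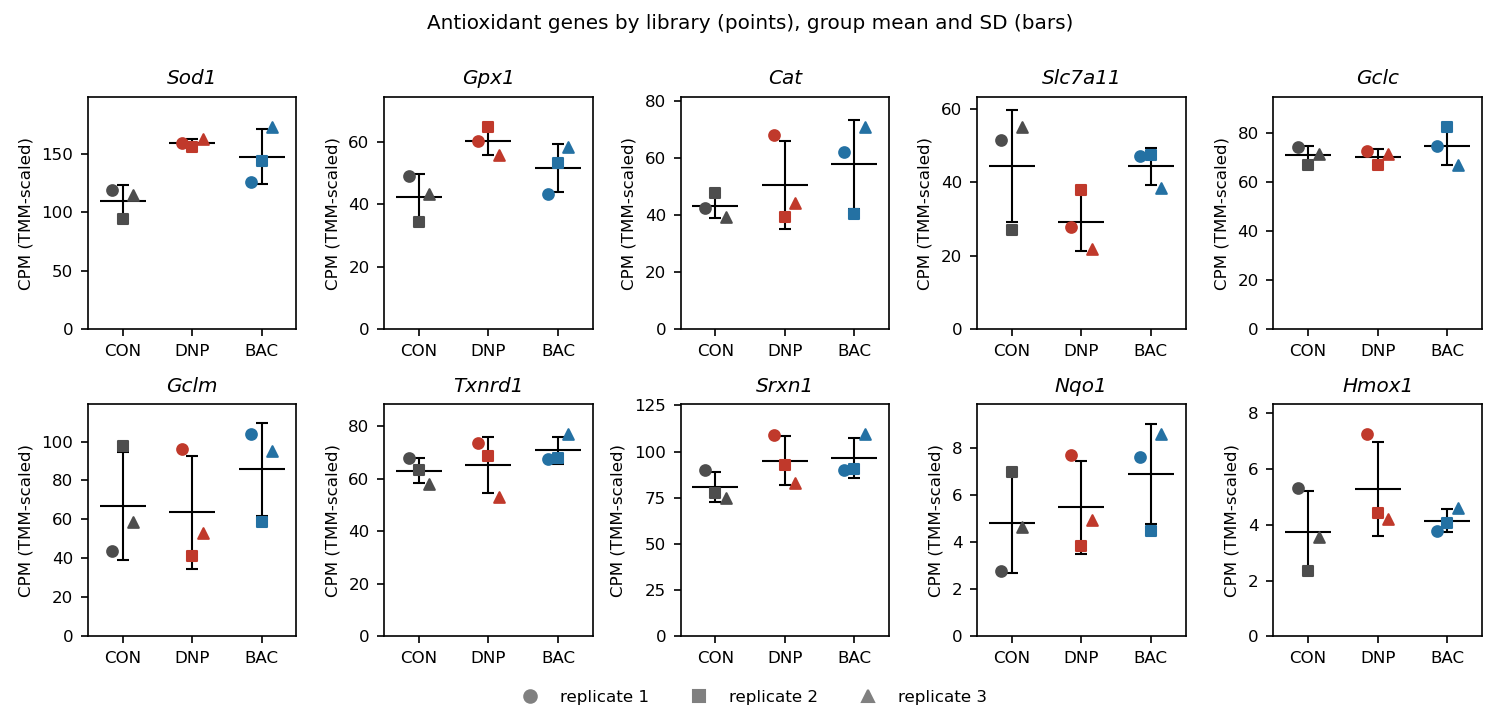
Level of each of the 10 genes (CPM, linear axis from 0) in the 3 CON, 3 DNP and 3 BAC libraries; each point is a library, its shape gives the replicate number and the bar is the group mean. Sod1 and Gpx1 have all DNP points above all CON points, and Gclm and Nqo1 split into high and low libraries inside every group.

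Sod1 (ENSMUSG00000022982, chr16:90220754-90226329, plus strand, GRCm38) encodes the copper-zinc enzyme that converts superoxide to hydrogen peroxide in the cytosol. Its level was 119, 94.0 and 115 CPM in CON replicates 1, 2 and 3, 159, 156 and 162 CPM in DNP, and 126, 144 and 173 CPM in BAC. Every DNP and every BAC library was above every CON library, and the DNP libraries lay close together. The means were 109 ± 13.5, 159 ± 3.30 and 147 ± 23.5 CPM in CON, DNP and BAC (SD, n = 3 each). The log2 fold change was 0.54 ± 0.16 (SE, 95% interval 0.18 to 0.90) in DNP versus CON, with an unadjusted p of 0.00813 and an adjusted p of 0.329 in edgeR. DESeq2 gave an adjusted p of 0.089 for that difference. The gene overlaps Scaf4 on the other strand by 650 bases, and reads there cannot be assigned without strand. BAC versus CON was 0.43 ± 0.16 (adjusted p = 0.628 in edgeR), and BAC versus DNP was -0.11 ± 0.16 (adjusted p = 0.998 in edgeR).

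Gpx1 (ENSMUSG00000063856, chr9:108338903-108340343, plus strand), the selenium-dependent peroxidase that removes hydrogen peroxide with glutathione, took the same order of groups. It was at 49.1, 34.2 and 43.2 CPM in CON, 60.1, 64.6 and 55.6 CPM in DNP, and 43.2, 53.2 and 58.2 CPM in BAC. All 3 DNP libraries exceeded all 3 CON libraries, while BAC overlapped with both. DNP versus CON gave a log2 fold change of 0.51 ± 0.17 (0.11 to 0.91) in DNP versus CON, with an unadjusted p of 0.0177 and an adjusted p of 0.372 in edgeR. It was -0.22 ± 0.17 in BAC versus DNP (adjusted p = 0.998 in edgeR) and 0.29 ± 0.17 in BAC versus CON (adjusted p = 0.693 in edgeR).

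Several other measures moved with Sod1 and Gpx1, a choice of measures made with their values in view. Mitochondrial genes took 4.34% to 5.36% of the counts in CON, 6.68% to 7.01% in DNP and 5.94% to 7.23% in BAC. The summed level of 6 blood genes, mostly globins, was 190 to 218 CPM in CON, 478 to 684 in DNP and 472 to 736 in BAC, and that of 8 oligodendrocyte genes was 2264 to 3158, 3796 to 9415 and 3046 to 9624 CPM. Microglial markers, 8 genes, summed to 165 to 312 CPM in CON, 309 to 409 in DNP and 262 to 420 in BAC. In these lists none of the genes was at 0 in any library. Transcript length moved too: the median log2 fold change in DNP versus CON was 0.18 for genes with a length under 1000 bases (implied by the ratio of counts to FPKM), 0.11 for 2000 to 4000 bases and -0.13 above 8000 bases. The length implied for Sod1 was 646 bases, and 20.5% of the 1396 genes of its length class had all DNP libraries above all CON libraries. For Gpx1 it was 3412 bases, in a class of 4112 genes where that share was 12.8%. That length exceeds the 1441 bases that the Gpx1 gene spans, so its class is uncertain. In the class of 1000 to 2000 bases the share was 15.7%. Without mitochondrial genes the fold changes were 0.53 for Sod1 and 0.50 for Gpx1. In the 5 libraries rich in forebrain they were 0.44 ± 0.10 (adjusted p = 0.148 in edgeR) and 0.38 ± 0.14 (adjusted p = 0.261 in edgeR). With scores of cerebellum and brainstem markers as covariates they were 0.15 ± 0.24 and -0.03 ± 0.23. High brainstem scores occurred only in diabetic libraries, so this covariate is partly confounded with group, and few libraries carry the added terms. The part of blood, oligodendrocytes, microglia and transcript length in these differences was not tested.

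Cat (ENSMUSG00000027187, chr2:103453849-103485160, minus strand) encodes catalase, the peroxisomal enzyme that splits hydrogen peroxide. It was at 42.3, 47.8 and 39.3 CPM in CON, 68.0, 39.3 and 44.3 CPM in DNP, and 62.2, 40.3 and 70.8 CPM in BAC. The 4 highest values came from the 4 libraries poor in forebrain, although the CON library among them, at 47.8 CPM, was close to the next value of 44.3 CPM, and the groups overlapped. The values of 62.2 CPM and above came from the libraries rich in brainstem markers, all of them diabetic. Over the 9 libraries, r of Cat was 0.97 with the brainstem and spinal cord markers. Its log2 fold change was 0.23 ± 0.26 in DNP versus CON (adjusted p = 0.794 in edgeR), 0.19 in BAC versus DNP (adjusted p = 0.998 in edgeR) and 0.42 ± 0.26 in BAC versus CON (adjusted p = 0.699 in edgeR).

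**Figure D2:**
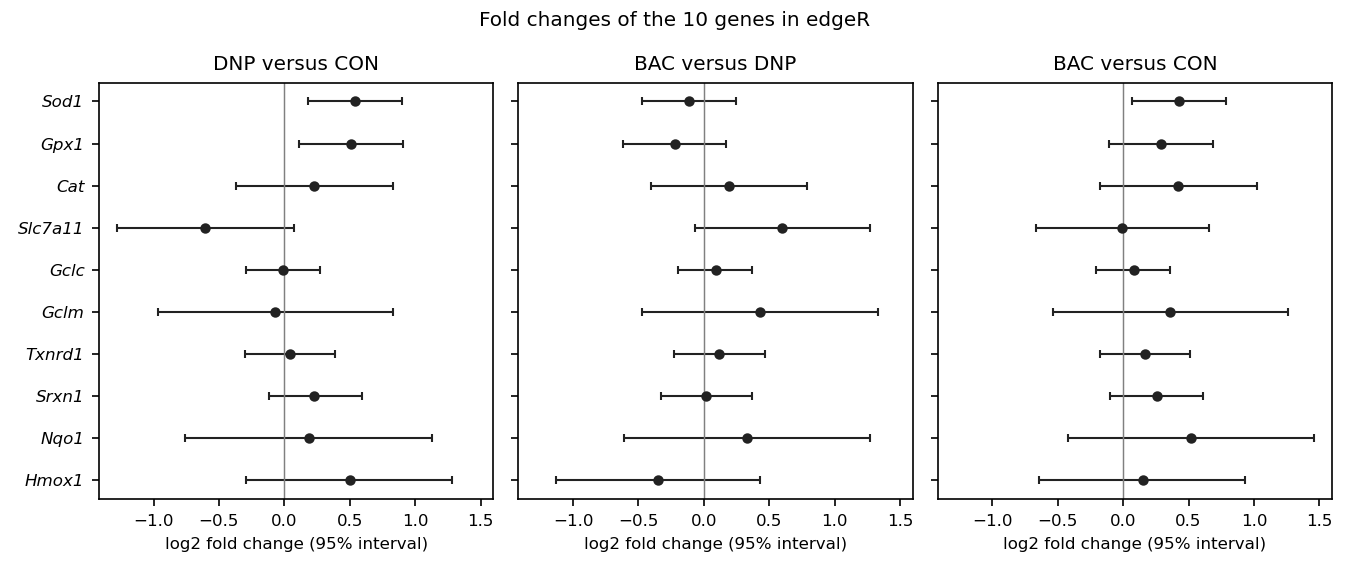
Log2 fold change of each of the 10 genes in the 3 comparisons, 1 per panel (edgeR, 9 libraries); points are estimates and bars are 95% intervals without correction for the number of genes tested. The intervals that lie wholly above 0 are those of Sod1 and Gpx1 in DNP versus CON and of Sod1 in BAC versus CON; Slc7a11 lies at -0.61 and 0.60 in the first 2 panels.

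Slc7a11 (ENSMUSG00000027737, chr3:49892526-50443614, minus strand) encodes xCT, the cystine-glutamate exchanger that brings in cystine for glutathione and exports glutamate. It is a target of NRF2 and also of ATF4, the factor of the amino acid response, which binds elements with the core TGATGNAA. Of the 10 member windows, only that of Slc7a11 held this core, against 3.97% of all 32851 windows on both strands. It held 2 matches that face in opposite directions and are shown, with the core in capitals, because no other of the 8 members with a window held this core.
Slc7a11 upstream match, minus strand: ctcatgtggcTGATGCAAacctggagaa
Slc7a11 downstream match, plus strand: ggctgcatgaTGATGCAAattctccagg
The first stretch lies at chr3:50443662-50443689 (core at positions -66 to -59 from the start site) and the second at chr3:50443643-50443670 (core at -47 to -40). Slc7a11 was at 51.6, 26.9 and 55.1 CPM in CON, 27.9, 37.9 and 21.9 CPM in DNP, and 47.2, 47.4 and 38.4 CPM in BAC. CON replicate 2 was as low as the DNP libraries, so CON and DNP overlapped. BAC lay above DNP without overlap, but BAC replicate 3 and DNP replicate 2 were only 38.4 against 37.9 CPM. The log2 fold change was -0.61 ± 0.29 (95% interval -1.28 to 0.07, adjusted p = 0.475 in edgeR) in DNP versus CON. It was 0.60 ± 0.29 (-0.07 to 1.27, adjusted p = 0.998 in edgeR) in BAC versus DNP, a fold of 1.52, and -0.01 ± 0.29 (adjusted p = 0.996 in edgeR) in BAC versus CON. These 2 opposite differences share the DNP libraries, and low DNP values enter both.

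Markers of the meninges lay in the same group order. The summed level of 8 meningeal genes was 69.0, 91.0 and 93.5 CPM in CON, 52.1, 49.6 and 36.8 in DNP, and 101, 67.9 and 91.3 in BAC, with none of the 8 at 0 in any library. All 8 had a fold change below 0 in DNP versus CON and above 0 in BAC versus DNP, and 5 of 8 did not overlap between groups in each. Over all genes that share was 8.63% in the first direction and 3.38% in the second. The list was chosen with earlier results of these data known, so these counts are not independent evidence. CON replicate 2, which was low in Slc7a11, was not low in these markers. Astrocyte genes, 8 in number, summed to 4414 to 4903 CPM in CON, 3266 to 4711 in DNP and 4713 to 5031 in BAC. Border macrophage markers, 6 genes of which 3 were tested, summed to 6.04, 4.63 and 5.83 CPM in CON, 3.69, 6.69 and 2.56 in DNP, and 6.76, 5.80 and 4.72 in BAC. The lowest libraries of Slc7a11, DNP replicate 3, and of these markers were the same, and within DNP replicate 2 was highest in both. Over the 9 libraries, r of Slc7a11 with the mean log2 level of the tested markers was 0.59 for meninges, 0.77 for border macrophages and 0.01 for astrocytes. The macrophage score rests on Mrc1, Cd163 and F13a1, with only 5 to 48 counts per library. Their DNP versus CON values were -0.91, 0.05 and -0.40. The part of meningeal, macrophage or astrocytic RNA in the Slc7a11 values was not tested. Without CON replicate 2 the DNP versus CON value was -0.87, and over all 9 fits with a library left out it stayed between -0.87 and -0.43. It was -0.83 ± 0.27 in the 5 libraries rich in forebrain (adjusted p = 0.229 in edgeR), -1.17 ± 0.51 with the region scores as covariates (adjusted p = 0.417 in edgeR) and -0.37 in limma on log2(FPKM + 1) (adjusted p = 0.577). In BAC versus DNP that range was 0.43 to 0.84, with adjusted p-values of 0.614 to 1 in edgeR.

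Gclc (ENSMUSG00000032350, chr9:77754535-77794485, plus strand) and Gclm (ENSMUSG00000028124, chr3:122245557-122270732, plus strand) encode the catalytic and the modifier subunit of glutamate-cysteine ligase, the rate-limiting enzyme of glutathione synthesis. The subunit genes behaved differently across the libraries. Gclc was at 74.6, 66.9 and 71.5 CPM in CON, 72.7, 67.2 and 71.5 CPM in DNP, and 75.0, 82.4 and 67.1 CPM in BAC, the narrowest range of the 10 members. Its log2 fold change in DNP versus CON was -0.01 ± 0.12, with a 95% interval of -0.29 to 0.27 (adjusted p = 0.984 in edgeR). Gclm was at 43.8, 97.7 and 58.8 CPM in CON, 96.3, 41.5 and 53.1 CPM in DNP, and 104, 58.6 and 94.97 CPM in BAC. The 4 libraries poor in forebrain were at 94.97 CPM or above and the other 5 at 58.8 CPM or below, in every group. Those 4 were not alike in region, as the CON library among them was poor in brainstem markers. The group differences of Gclm were -0.07 ± 0.40 in DNP versus CON (adjusted p = 0.967), 0.43 ± 0.40 in BAC versus DNP (adjusted p = 0.998) and 0.36 in BAC versus CON (adjusted p = 0.848), all from edgeR. Reads of Gclm and of Gm17494, which overlaps it by 14775 bases on the other strand and had 246 to 449 counts, cannot be told apart without strand.

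Nqo1 (ENSMUSG00000003849, chr8:107388225-107403206, minus strand), the quinone reductase often used as a readout of NRF2, split the libraries as Gclm did. It was at 2.79, 6.99 and 4.64 CPM in CON, 7.68, 3.82 and 4.93 CPM in DNP, and 7.63, 4.49 and 8.57 CPM in BAC. The 4 libraries poor in forebrain held the 4 highest values, 6.99 CPM or more against 4.93 CPM or less. The log2 fold change was 0.19 ± 0.41 (95% interval -0.76 to 1.13, adjusted p = 0.908 in edgeR) in DNP versus CON and 0.33 in BAC versus DNP (adjusted p = 0.998 in edgeR). In BAC, where 2 of 3 libraries were poor in forebrain, the difference from CON was 0.52 ± 0.41 (adjusted p = 0.771 in edgeR), and without the 3 libraries rich in brainstem markers, which leaves BAC replicate 2 as the only BAC library, it was -0.11. With the region scores as covariates the DNP versus CON value was 1.06 ± 0.44 (unadjusted p = 0.0434, adjusted p = 0.406 in edgeR).

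**Figure D3:**
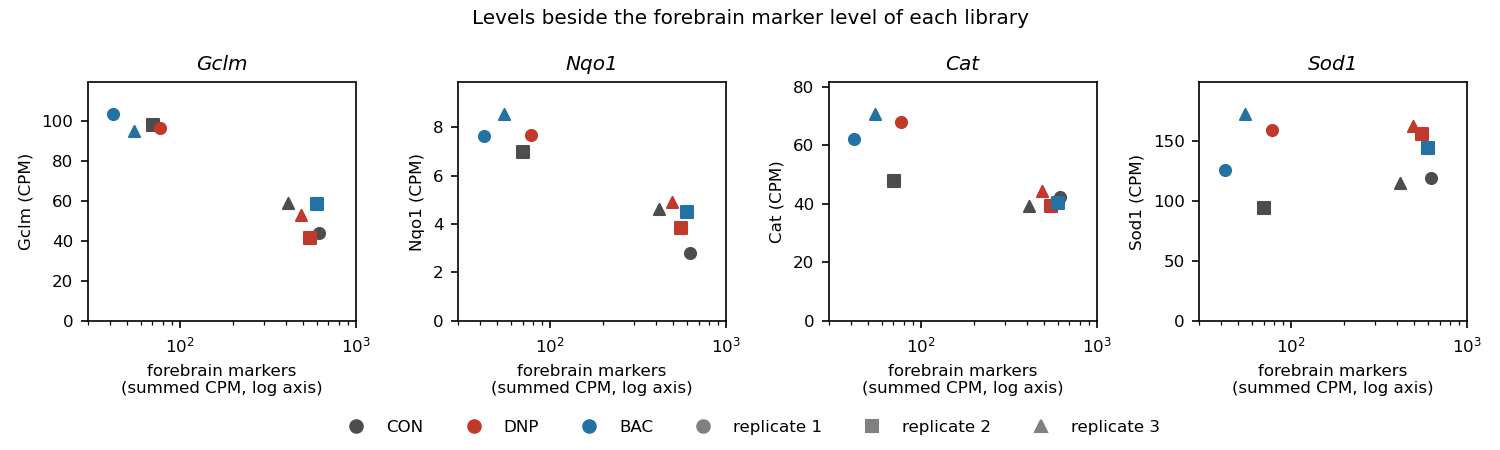
Level of Gclm, Nqo1, Cat and Sod1 (CPM, linear axis from 0) against the summed level of 8 forebrain markers (CPM, log axis) in each of the 9 libraries, coloured by group, with the shape giving the replicate number. Gclm, Nqo1 and Cat are highest in the 4 libraries at 42 to 77.6 CPM of forebrain markers, from all 3 groups, whereas Sod1 is lowest in a CON library on that side and highest in a BAC library on the same side.

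The gene for NRF2 itself followed the libraries in the same way. Nfe2l2 was at 12.8, 18.8 and 16.3 CPM in CON, 20.5, 16.9 and 14.7 CPM in DNP, and 22.2, 17.2 and 23.2 CPM in BAC, with the 4 highest values in the 4 libraries poor in forebrain. Its log2 fold changes were 0.12 ± 0.21, 0.26 ± 0.21 and 0.39 ± 0.21 for DNP over CON, BAC over DNP and BAC over CON, with adjusted p-values of 0.874, 0.998 and 0.674 in edgeR. A transcript level says little of NRF2 activity, which is set by the stability of the protein. The mean log2 level of the astrocyte markers, centred per gene, was 0.24 to 0.56 in those 4 libraries and -0.45 to -0.13 in the others. Its r with Gclm, Nqo1, Cat and Nfe2l2 was 0.95, 0.88, 0.86 and 0.90 over the 9 libraries. For the forebrain markers r was -0.95, -0.92, -0.88 and -0.90. For brainstem and spinal cord r was 0.80, 0.81, 0.97 and 0.85, and for cerebellum 0.82, 0.68, 0.57 and 0.61. It was -0.77, -0.82, -0.67 and -0.91 for neurons, and -0.64, -0.54, -0.73 and -0.65 for endothelium. For oligodendrocytes it was 0.48, 0.62, 0.83 and 0.55. The parts of cell types and of region in these levels were not tested. Me1, malic enzyme 1, a source of NADPH and another NRF2 target, was the gene nearest to Cat in pattern (Pearson's r of log2 CPM 0.987 over 9 libraries).

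Hmox1 (ENSMUSG00000005413, chr8:75093621-75100589, plus strand) encodes the inducible heme oxygenase, which breaks heme down to biliverdin, iron and carbon monoxide, and in brain is known chiefly from microglia and macrophages. It was at 5.31, 2.35 and 3.58 CPM in CON, 7.24, 4.44 and 4.20 CPM in DNP, and 3.78, 4.07 and 4.60 CPM in BAC. The groups overlapped, and DNP replicate 1 was the highest library. The log2 fold change was 0.50 ± 0.34 in DNP versus CON (adjusted p = 0.618 in edgeR), -0.35 ± 0.34 in BAC versus DNP (adjusted p = 0.998 in edgeR) and 0.15 in BAC versus CON (adjusted p = 0.929 in edgeR). In the 5 libraries rich in forebrain the DNP versus CON value was -0.04, and without CON replicate 1 it was 0.83 (adjusted p = 0.433 in edgeR). CON replicate 2 had the lowest level of both Hmox1 and the 8 microglial markers.

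Txnrd1 (ENSMUSG00000020250, chr10:82833951-82897712, plus strand), the cytosolic thioredoxin reductase, was at 67.9, 63.4 and 58.2 CPM in CON, 73.7, 68.5 and 53.1 CPM in DNP, and 67.6, 67.9 and 76.8 CPM in BAC. Its groups overlapped in all 3 comparisons. The log2 fold change was 0.04 ± 0.15 (95% interval -0.30 to 0.39) for DNP over CON, 0.12 for BAC over DNP and 0.17 for BAC over CON, with adjusted p-values of 0.946, 0.998 and 0.813 in edgeR. Srxn1 (ENSMUSG00000032802, chr2:152105516-152111376, plus strand), sulfiredoxin 1, which repairs overoxidised peroxiredoxins, was at 89.9, 77.8 and 74.7 CPM in CON, 109, 92.8 and 83.2 CPM in DNP, and 89.9, 90.4 and 109 CPM in BAC. Here CON replicate 1 exceeded DNP replicate 3, so CON and DNP overlapped. The differences were 0.23 ± 0.15 (adjusted p = 0.599), 0.02 (adjusted p = 0.999) and 0.26 ± 0.15 (adjusted p = 0.693) for DNP over CON, BAC over DNP and BAC over CON, from edgeR.

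Pattern neighbours were sought among 16773 genes with a mean of at least 1 CPM, by Pearson's r of log2 CPM over the 9 libraries, which share library depth and regional make-up. The nearest gene was Timm8b for Sod1 (r = 0.974), Rps3 for Gpx1 (0.977), Gm16001 for Slc7a11 (0.973), Gm8188 for Gclc (0.893) and Gm5466 for Gclm (0.989). For Nqo1 it was Etfa (0.992), for Hmox1 Actr1a (0.963), for Txnrd1 Slc38a10 (0.960) and for Srxn1 Gm4737 (0.971). Timm8b is a mitochondrial import chaperone and Rps3 a ribosomal protein. Each r is the highest over all genes searched, on only 9 points, and describes likeness in these libraries alone.

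Beyond the members, 85 genes of 5 lists show the rest of the pathway. Among 12 regulators of NRF2, edgeR gave no gene an unadjusted p under 0.05 in any comparison, and the median log2 fold change was 0.10, -0.04 and -0.01 for DNP over CON, BAC over DNP and BAC over CON. Keap1 was at 92.7, 77.8 and 80.7 CPM in CON, 75.3, 76.2 and 73.3 CPM in DNP, and 64.6, 73.0 and 83.6 CPM in BAC. All DNP libraries were below all CON libraries, by a log2 fold change of -0.16 ± 0.14 (adjusted p = 0.701 in edgeR). Rbx1, the RING subunit of the ligase that ubiquitinates NRF2, was at 0.30 ± 0.14 without overlap between DNP and CON (adjusted p = 0.461 in edgeR). Maff, a small MAF partner, was at 0.85 ± 0.43 in DNP versus CON and -0.81 ± 0.43 in BAC versus DNP (adjusted p = 0.490 and 0.998 in edgeR), from 14 to 58 counts per library. Sqstm1, which binds KEAP1, was at 0.29 ± 0.20 in DNP versus CON, Mafg at -0.24 ± 0.14 in BAC versus DNP, and Dpp3 at -0.19 ± 0.13 in BAC versus CON. Nfe2l1, the relative of NRF2, had a value of -1.40 ± 0.84 in BAC versus DNP that rested on DNP replicate 1, at 408 CPM against 36.9 to 104 CPM in the other libraries, and was 0.67 without it.

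Of 25 other NRF2 targets, 24 could be tested, and Osgin1 could not. Above 0 in fold change were 19 of 24 for DNP over CON, 13 for BAC over DNP and 21 for BAC over CON, with medians of 0.23, 0.03 and 0.31. Unadjusted p was under 0.05 for 3 genes higher in DNP than CON, where the background of higher genes is 5.71%, for none in BAC versus DNP and for 4 higher in BAC than CON, against 4.46%. Fth1, the ferritin heavy chain, was at 1527, 1059 and 1293 CPM in CON, 3578, 1869 and 2841 CPM in DNP, and 2356, 1655 and 3023 CPM in BAC. Its libraries did not overlap between CON and either diabetic group. In log2 terms the differences of Fth1 were 1.10 ± 0.30 in DNP versus CON (adjusted p = 0.325 in edgeR and 0.0454 in DESeq2) and 0.86 ± 0.30 in BAC versus CON (adjusted p = 0.628 in edgeR), and with the region scores as covariates the latter was -0.09. Ferritin is abundant in oligodendrocytes, whose markers had the ranges given with Sod1 and Gpx1, and their part in it was not tested. Txn1, thioredoxin 1, was at 30.3, 28.6 and 32.2 CPM in CON, 41.1, 40.1 and 45.5 CPM in DNP, and 38.6, 34.0 and 43.3 CPM in BAC. Its values were 0.48 ± 0.14 in DNP versus CON and 0.35 ± 0.14 in BAC versus CON (adjusted p = 0.327 and 0.628 in edgeR). Gstp1, a glutathione transferase, was at 0.59 ± 0.18 in DNP versus CON, and Gsta4, another, at 0.86 ± 0.33 in BAC versus CON (adjusted p = 0.350 and 0.628 in edgeR). In BAC versus DNP the 3 smallest unadjusted p-values of the list belonged to Prdx1 (0.44 ± 0.27), Abcc4 (-0.26 ± 0.17) and Ephx1 (0.22 ± 0.17), with adjusted p = 0.998 in edgeR for each.

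**Figure D4:**
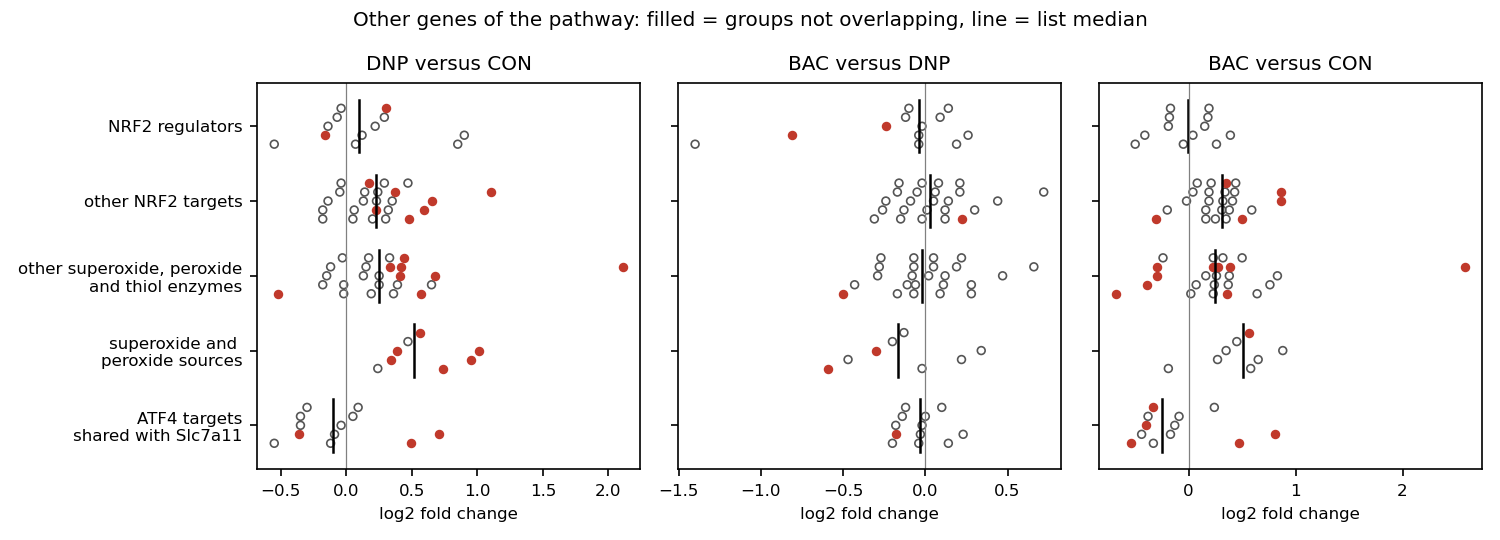
Log2 fold changes (edgeR) of the tested genes of the 5 lists besides the 10 members, in the 3 comparisons. Each point is a gene, filled where the groups did not overlap, and the bar is the median of the list. Medians of the 24 other NRF2 targets and of the 24 other superoxide, peroxide and thiol enzymes are 0.23 and 0.25 in DNP versus CON. Those of all 5 lists lie between -0.16 and 0.03 in BAC versus DNP.

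Other superoxide, peroxide and thiol enzymes, 24 in number, had medians of 0.25, -0.02 and 0.25 in the same order of comparisons. In DNP versus CON, 4 were higher and 1 was lower at an unadjusted p under 0.05 in edgeR, against 5.71% and 5.46% of all genes. The counts were 0 and 1 for BAC over DNP (1.37% and 1%) and 3 and 2 for BAC over CON (4.46% and 3.3%). Groups did not overlap for 7 higher and 1 lower in DNP versus CON, against 9.59% and 8.63% of all genes. Those counts were 0 and 1 for BAC over DNP (3.38% and 3.41%) and 5 and 4 for BAC over CON (7.21% and 6.23%). Gpx3, the secreted glutathione peroxidase, was at 4.58, 4.49 and 4.14 CPM in CON, 34.8, 12.97 and 9.33 CPM in DNP, and 24.0, 13.8 and 41.4 CPM in BAC. CON was low and even, and within each diabetic group the libraries rich in brainstem markers were the highest. On the log2 scale the differences were 2.11 ± 0.55 in DNP versus CON and 2.58 ± 0.56 in BAC versus CON (adjusted p = 0.312 and 0.628 in edgeR, 0.0152 and 0.00292 in DESeq2). Gpx4, which reduces lipid peroxides, was at 0.42 ± 0.14 and Msrb1, a methionine sulfoxide reductase, at 0.68 ± 0.21 in DNP versus CON (adjusted p = 0.367 and 0.350 in edgeR). Msra, the other kind of methionine sulfoxide reductase, was at -0.50 ± 0.20 for BAC over DNP and -0.68 ± 0.20 for BAC over CON (adjusted p = 0.998 and 0.628 in edgeR), with all BAC libraries below those of either other group. Txn2 and Glrx2, the mitochondrial thioredoxin and glutaredoxin, were at -0.43 ± 0.24 and -0.28 ± 0.14 in BAC versus DNP (adjusted p = 0.998 for each in edgeR).

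Enzymes that make superoxide or peroxide were listed as 12 genes, of which 8 were tested and Nox1, Nox4, Duox1 and Duox2 were too low. All 8 had a fold change above 0 in DNP versus CON, against 51.4% of all genes. In 6 the groups did not overlap, against 9.59% of all genes in that direction. The list was chosen with earlier results of these data known, so neither count is independent evidence. Cybb is in both counts, but with 4, 7 and 6 counts in CON it reached the minimum count of 10 only in diabetic libraries. Its direction was therefore tied to the filter, and it adds no evidence to either count. Ncf1, a cytosolic subunit of the phagocyte NADPH oxidase, was at 5.70, 2.57 and 5.97 CPM in CON, 8.91, 9.56 and 9.13 CPM in DNP, and 5.30, 8.49 and 8.63 CPM in BAC. In DNP versus CON the log2 fold change was 0.95 ± 0.34 for Ncf1 (adjusted p = 0.380 in edgeR), 0.74 ± 0.33 for Ncf4 (0.456) and 1.01 ± 0.42 for Cybb, the catalytic subunit, which had only 4 to 13 counts per library (0.427). These subunits are made by microglia and other phagocytes, whose markers had the ranges given with Sod1 and Gpx1, and the part of cell number was not tested. Xdh, xanthine dehydrogenase, was at -0.59 ± 0.21 in BAC versus DNP, and the monoamine oxidases Maoa and Maob were at 0.58 ± 0.29 and 0.56 ± 0.24 in BAC versus CON (adjusted p = 0.998, 0.654 and 0.638 in edgeR).

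Atf4 and genes it controls, 12 in all, were listed because Slc7a11 is an ATF4 target. In DNP versus CON 8 of 12 had a fold change below 0, as Slc7a11 did, and in BAC versus DNP 9 of 12, with medians of -0.11 and -0.04, while in BAC versus CON the median was -0.25. Of those 8, Trib3 alone was above 0 in BAC versus DNP (-0.55 and 0.23 in the first 2 comparisons, named after its values were seen). Psat1 and Phgdh, enzymes of serine synthesis, were at 0.71 ± 0.20 and 0.49 ± 0.15 in DNP versus CON and at 0.81 ± 0.20 and 0.47 ± 0.15 in BAC versus CON, without overlap with CON (adjusted p from 0.327 to 0.628 in edgeR). Slc7a5, the large neutral amino acid transporter, was at -0.36 ± 0.17 and -0.54 ± 0.17 in those comparisons, and also without overlap (adjusted p = 0.465 and 0.628 in edgeR). Slc3a2, the heavy chain that pairs with the Slc7a11 protein in the exchanger, was at 96.2, 107 and 106 CPM in CON, 108, 101 and 112 CPM in DNP, and 95.4, 91.4 and 96.5 CPM in BAC. BAC lay below DNP without overlap (-0.18 ± 0.11, adjusted p = 0.998 in edgeR), the direction opposite to that of Slc7a11. Atf4 itself was at -0.20 ± 0.17 in BAC versus DNP (adjusted p = 0.998 in edgeR).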

How the data were processed

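Whole-brain poly(A) RNA of 9 mice was sequenced by the authors as non-strand-specific paired-end libraries. Per the labels and the study's methods, the authors used FastQC 0.11.9, fastp, Bowtie2 2.3.4.1, HISAT2 2.1.0 (GRCm38) and StringTie 1.3.3b. The deposited raw counts per gene and the deposited FPKM values were used. The FPKM values are counts over a length and the library total (ratio of lengths at most 1.000018 over 12216 genes). The counting of reads that map to several genes is not given in the sources used here.

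Counts were analysed in R 4.3.3 with edgeR 4.0.16: filterByExpr (minimum count 10), TMM, a single quasi-likelihood fit of 9 libraries, and Benjamini-Hochberg adjustment at 0.05. The biological coefficient of variation was 36.5%. DESeq2 1.42.0, other normalizations and filters, limma 3.58.1 on log2(FPKM + 1 or 0.1), a replicate block, region scores and libraries left out were alternatives. In simulated data for DNP versus CON (18501 genes, 200 with a log2 change of 2), edgeR recovered 73% with 10 false calls and DESeq2 71.5% with 28. That simulation used a single dispersion for all genes and no regional differences between libraries. It does not show how smaller changes, such as those of the members, would be recovered.

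The members and lists were chosen with earlier results of these data known. Named genes are the members, Nfe2l2, Keap1, the 3 genes of each other list with the smallest unadjusted p per comparison, and each member's nearest gene; Trib3 and the library values of Nfe2l1 were added after they were seen. Besides 5 pathway lists, 12 marker lists with 94 genes were summed. The lists of neurons (5162 to 7245 CPM) and endothelium (172 to 297) were set beside members only through r. Choroid plexus (27.5 to 1396) was set beside none, and cerebellum (63 to 6528) entered through its library levels and its score. In the main fit, p-values set group differences, with 3 mice per group, against a spread estimated over all 9 libraries and moderated across genes. That spread includes the regional differences between libraries.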

Additional observations from a re-analysis of the deposited data

How the results depend on the processing

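No member passed an adjusted p of 0.05 in any comparison under any of the 21 alternatives to the edgeR fit. The count over all genes was 0 in edgeR and 346, 7 and 101 in DESeq2 for DNP over CON, BAC over DNP and BAC over CON, and with a library left out it was 0 to 1 for DNP versus CON, 0 for BAC versus DNP and 0 to 1 for BAC versus CON, the single gene coming without CON replicate 2. Sod1 and Gpx1 in DNP versus CON and Slc7a11 for DNP over CON and for BAC over DNP kept their direction, except that Gpx1 was -0.03 with the region scores as covariates. Those scores also turned Gclm to 0.62, Hmox1 to -0.73, Txnrd1 to -0.21, Srxn1 to -0.14, Sqstm1 to -0.34 and Slc7a5 to 0.05 in DNP versus CON, Nqo1 to -0.08, Srxn1 to -0.03 and Cat to -0.08 in BAC versus DNP, and Hmox1 to -1.08, Txnrd1 to -0.14, Srxn1 to -0.18, Gpx1 to -0.19, Cat to -0.05 and Fth1 to -0.09 in BAC versus CON (log2). They moved Nqo1 to 1.06 and Slc7a11 to -1.17 in DNP versus CON. As high brainstem scores occurred only in diabetic libraries, the fits with these scores cannot separate region from group. The next 2 settings leave BAC with replicate 2 alone, which is assumed to vary like the other groups. Without the 3 libraries rich in brainstem markers, Nqo1 was -0.15, Txnrd1 -0.07, Cat -0.06 and Nfe2l2 -0.03 in DNP versus CON, Cat -0.05 and Nfe2l1 0.53 in BAC versus DNP, and Gclm -0.20, Slc7a11 0.08, Nqo1 -0.11 and Cat -0.11 in BAC versus CON. In the 5 libraries rich in forebrain, a choice made after seeing the data, Hmox1 was -0.04 and Txnrd1 -0.05 in DNP versus CON, Cat -0.04 and Nfe2l1 0.54 in BAC versus DNP, and Hmox1 -0.11 and Cat -0.00 in BAC versus CON. Gclc in DNP versus CON was 0.03 with upper-quartile scaling and with limma at either pseudocount. Slc7a11 in BAC versus CON was 0.04 with upper-quartile scaling, 0.01 without a filter, 0.00 with only the groups compared, and 0.08 and 0.11 with limma at pseudocounts of 1 and 0.1. Keap1 in BAC versus DNP was 0.00 without a filter. The cause of these turns was not tested.

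With a library left out, the sign turned in DNP versus CON for Gclc (-0.06 to 0.03), Gclm (-0.50 to 0.31), Nqo1 (-0.13 to 0.55), Txnrd1 (-0.05 to 0.17), Cat (-0.05 to 0.37) and Nfe2l2 (-0.01 to 0.25), in BAC versus DNP for Txnrd1 (-0.01 to 0.22), Srxn1 (-0.07 to 0.13), Keap1 (-0.12 to 0.07) and Nfe2l1 (-1.87 to 0.67), and in BAC versus CON for Slc7a11 (-0.27 to 0.18) and Hmox1 (-0.10 to 0.48). The replicate block gave 0 calls, with Sod1 at 0.54 in DNP versus CON (adjusted p = 0.484). Deviations of libraries with the same number correlated at -0.58 to 0.56, and libraries did not all correlate best with their own number. The sources do not say what the numbers stand for. With regional differences between libraries, these correlations cannot decide whether the numbers pair the samples. Hmox1, Nqo1, Cybb, Maff and the border macrophage score rest on few counts. The wide interval of Gclm goes with the spread between its libraries, as Gclc with similar counts had an SE of 0.12 against 0.40.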
